A study of Homo sapiens with 5 samples.

Results

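The olfactory receptor genes of chromosome 11 were followed through 220 windows of 1000 bases, out of 288391 windows measured by reduced representation bisulfite sequencing (RRBS) in human induced pluripotent stem cells (iPSCs). A window was taken when it lay on chromosome 11 and the gene the authors had assigned to it carried an olfactory receptor symbol. The 220 windows were assigned to 124 symbols, of which 55 named genes, with 81 windows, and 69 named pseudogenes, with 139 windows. RefSeq listed 376 olfactory receptor symbols on this chromosome, so most of the repertoire had no window. Of the 124 symbols, 122 were found in RefSeq, and OR56B2P and OR8G3P were not. RefSeq classed 4 symbols counted here as genes (OR52E1, OR52P1, OR4C45 and OR8J2) as transcribed pseudogenes.

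Olfactory receptors are G protein-coupled receptors that bind odorants on the cilia of olfactory sensory neurons, and each mature neuron uses a single receptor allele. The genes stand in tandem clusters, have an intronless coding exon, and are silent in most other tissues. Class I receptors, here the families OR51, OR52, OR55 and OR56, resemble those of fish, and class II receptors are the larger group of land vertebrates. Many copies have decayed to pseudogenes, and the OR7E pseudogenes were spread over several chromosomes by duplication.

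The cells were the iPSC line HPS0063 (201B7), of wild-type genotype, grown feeder-free and exposed for 48 h. One group received the vehicle alone, 0.1% DMSO. The others received 1 nM etoposide, a topoisomerase inhibitor, 1 µM propyl gallate, an antioxidant food additive, 1 µM theophylline, a methylxanthine, or 10 nM 5-aza-dc, a cytidine analogue that traps DNA methyltransferases. Each condition was 1 library of 1 line, so no difference below has a replicate check, and the tests compare libraries rather than conditions.

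The measure was the β-value, the percentage of cytosine calls in a window that were methylated. The libraries held 188844850 to 228919184 calls, with the most in the vehicle control, and the median olfactory receptor window there held 431 calls against 499 over all windows. Of the 220 windows, 210 had at least 30 calls in every library and 173 had at least 100. All intervals given cover counting error only. Calls within a read and copies made by PCR are not independent, so the intervals are too narrow. As a check on the label, windows in the promoter section of DNMT3B, LIN28A and SALL4, which pluripotent cells express, had means of 1.14%, 2.76% and 0.536% in the vehicle control, whereas those of POU5F1 had 90.5% and that of ZFP42 had 60.9%. The promoter-section windows of 5 genes of differentiated cells were low as well, with a mean of 2.93%, so these windows did not separate the labelled cell type from others.

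RRBS reads DNA near cut sites of MspI, which cuts the sequence CCGG, and olfactory receptor promoters hold few of them. Among 138 RefSeq promoters of chromosome 11 olfactory receptors (GRCh38.p14, 250 bases before to 50 after the annotated start), the median was 1 CpG, against 14 over 35116 promoters of the genome. For some receptors the annotated start appears to be that of the coding sequence, so such a stretch need not be the promoter in use. No CpG at all was present in 37 of the 138 (26.8%), against 3.96% of all promoters. The letters CCGG, which read the same on both strands, occurred in 9 of the 138 (6.52%) and in 63.1% of all promoters. The median share of G and C was 37% and 58.7%, respectively. A measured window covered part of 3 of the 138 promoters (2.17%), against 1043 of the 1755 other promoters of the chromosome (59.4%). Class I and class II promoters had a median of 1 CpG each, and 1 of 42 and 2 of 96 lay under a window.

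The 3 olfactory receptor promoters under a window are printed here with each CpG in capitals, to show how few CpGs they hold. They are OR52J3 (chr11:5046276-5046575, plus strand), OR5F1 (chr11:55994576-55994875, minus strand) and OR10V1 (chr11:59713796-59714095, minus strand), in RefSeq's GRCh38.p14 and read along the gene. The promoter of OR52N2 (chr11:5808674-5808973, plus strand) had the most CpGs of the 138 but no window. That of TRIM21 (chr11:4393653-4393952, minus strand), which is no olfactory receptor, is shown because it lay inside the window assigned to OR52K3P.
OR52J3: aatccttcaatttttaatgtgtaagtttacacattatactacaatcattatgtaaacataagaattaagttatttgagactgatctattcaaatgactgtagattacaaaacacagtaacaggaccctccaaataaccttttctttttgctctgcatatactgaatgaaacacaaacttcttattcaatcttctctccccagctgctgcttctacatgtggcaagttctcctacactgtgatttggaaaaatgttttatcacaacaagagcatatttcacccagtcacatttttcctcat
OR5F1: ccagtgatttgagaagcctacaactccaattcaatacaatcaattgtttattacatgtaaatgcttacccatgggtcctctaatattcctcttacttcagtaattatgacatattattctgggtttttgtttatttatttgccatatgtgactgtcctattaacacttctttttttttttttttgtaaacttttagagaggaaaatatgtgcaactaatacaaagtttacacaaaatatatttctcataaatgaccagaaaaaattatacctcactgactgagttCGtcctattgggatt
OR10V1: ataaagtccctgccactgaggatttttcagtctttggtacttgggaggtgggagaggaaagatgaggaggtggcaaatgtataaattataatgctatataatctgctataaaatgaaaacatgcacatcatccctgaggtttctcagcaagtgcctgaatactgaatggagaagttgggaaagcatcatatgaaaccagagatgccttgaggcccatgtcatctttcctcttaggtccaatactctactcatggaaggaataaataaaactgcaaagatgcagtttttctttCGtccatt
OR52N2: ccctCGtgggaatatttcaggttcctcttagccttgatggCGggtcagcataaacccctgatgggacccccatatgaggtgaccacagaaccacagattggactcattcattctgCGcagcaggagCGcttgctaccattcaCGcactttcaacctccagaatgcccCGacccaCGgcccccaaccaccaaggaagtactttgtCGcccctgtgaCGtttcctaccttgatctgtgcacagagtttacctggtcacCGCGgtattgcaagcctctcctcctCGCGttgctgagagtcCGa
TRIM21: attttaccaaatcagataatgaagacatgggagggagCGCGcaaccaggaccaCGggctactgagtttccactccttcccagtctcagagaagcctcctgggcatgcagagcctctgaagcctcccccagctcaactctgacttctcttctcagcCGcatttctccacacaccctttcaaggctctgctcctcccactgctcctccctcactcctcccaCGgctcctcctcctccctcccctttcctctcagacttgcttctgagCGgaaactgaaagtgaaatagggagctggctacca
The OR52J3 stretch holds no CpG, those of OR5F1 and OR10V1 hold 1 each, and those of OR52N2 and TRIM21 hold 14 and 6. Each covered window also spans bases outside the promoter, and its level is that of the whole 1000 bases. The OR52J3 window read 95.5% in the vehicle control, 100% with etoposide, propyl gallate and theophylline and 87.2% with 5-aza-dc, on 44 calls in the control. The OR5F1 window read 100%, 100%, 97.4%, 93.8% and 97.3% in the same order, on 60 calls in the control. The OR10V1 window read 94.1%, 86.3%, 93.9%, 97.2% and 95.5%, on 304 calls. All 3 were highly methylated in every library.

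The windows were placed around the receptors rather than on them. By the authors' annotation 111 were intergenic, 42 lay 1 to 5 kb upstream, 35 were promoter windows, 10 intronic, 9 in a 3′ UTR, 7 across an intron-exon boundary and 6 exonic. The median distance to the assigned start was 3968 bases, against 13355 over all windows. Only 46 windows overlapped the gene assigned and 14 held its annotated start. Set on RefSeq, 44 windows lay in the span of some olfactory receptor, 40 only in other genes and 136 in no gene. Among the other genes, PLEKHA7, an adherens junction gene, held 8 windows, the matrix metalloprotease gene MMP26 held 8, and PRSS23, TSSC2 and XNDC1N held 3, 3 and 4. By the authors' CpG annotation 198 windows lay outside CpG islands, shores and shelves and 13 in islands. CpGs per window were not counted.

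The olfactory receptor windows were highly methylated in all 5 libraries. Their mean β-value was 88.5% in the vehicle control (95% counting interval 88.2 to 88.8), 88.4% with etoposide, 88.8% with propyl gallate, 89.5% with theophylline and 87.0% with 5-aza-dc. The means over all windows were 79.4%, 79.9%, 79.9%, 80.4% and 78.4% in the same order. In the vehicle control 196 of the 220 windows stood at or above 80% and 8 below 50%, or 3.64%, against 13.1% of all windows below 50%. Windows at or above 80% in all 5 libraries at once numbered 180 (81.8%), against 73.4% of all windows. Those below 20% in all 5 at once numbered 2 (0.909%), against 10.3%.

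Much of that gap went with CpG context. Outside islands, shores and shelves the olfactory receptor windows had a mean of 89.7% in the vehicle control and all such windows 88.1%, with medians of 92.2% and 91.8%. The gap was wider close to starts. Outside islands and under 1000 bases from the assigned start, 42 olfactory receptor windows had a mean of 86.9%, against 79.9% over 12617 windows, with closer medians of 92.2% and 90.6%. The 13 island windows had a mean of 76.1% and a median of 94.6%, against 41.5% and 15.0% over all island windows. In the vehicle control 3 of the 13 island windows were below 50%.

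The windows of genes had a higher mean than those of pseudogenes. The 81 windows of genes had a mean of 91.1% in the vehicle control (90.7 to 91.6) and the 139 windows of pseudogenes 87.0% (86.6 to 87.3). The medians, 92.3% and 91.7%, lay closer together, and all 8 windows below 50% belonged to pseudogenes. Class I and class II windows had means of 89.4% and 88.2%. Among families with at least 10 windows the means ran from 83.2% for the 39 windows of family 7, all of them OR7E pseudogenes, to 91.8% for the 16 windows of family 2. The means of pseudogenes, class II and family 7 include island windows of OR7E14P at 0.885% and 5.38%. These overlap PLEKHA7 and lower the means, which were not recomputed without them. Near-identical copies of OR7E stand on several chromosomes, so the assignment of their reads is uncertain.

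The windows formed 13 groups along the chromosome when neighbours under 1 Mb apart were joined. The 2 large groups were the 59 windows of 40 symbols between 3387001 and 7825000, which hold all class I receptors measured, and the 66 windows of 45 symbols between 55339001 and 59735000, all class II. Their means in the vehicle control were 89.6% and 90.0%. The lowest mean, 76.6%, was that of the 14 windows assigned to OR7E14P alone, and the next, 81.3%, that of 9 windows of OR7E87P, OR7E4P, OR7E128P and OR7E126P. The 14 windows of OR7E14P include the island windows at 0.885% and 5.38%, which overlap PLEKHA7 and lower that mean.

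**Figure D1:**
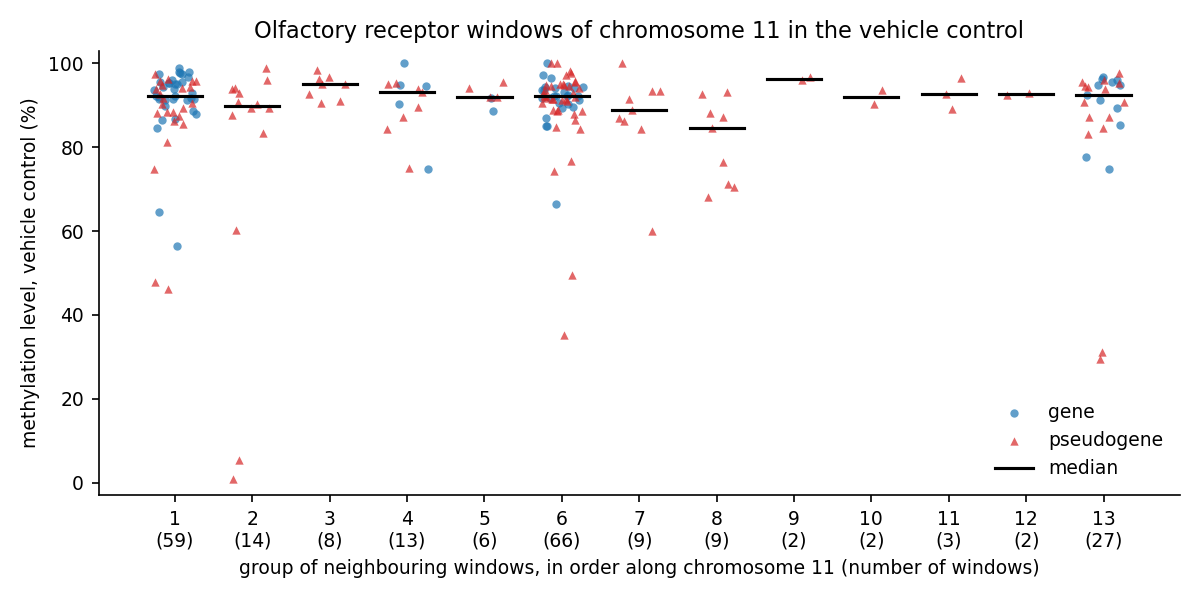
Methylation level in the vehicle control, in percent (y axis), of each olfactory receptor window by its group of neighbours in order along chromosome 11 (x axis, with the number of windows), for genes (blue circles), pseudogenes (red triangles) and the median of each group (black line). All medians lie above 80%, and every point below 50% is a pseudogene window, 2 of them near 0 in the second group.

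The 8 windows below 50% were looked at singly. A pair of windows assigned to OR7E14P formed a CpG island that was nearly unmethylated. At chr11:17013001-17014000 (hg38, the build of the deposited files) the levels were 5.38% in the vehicle control, 5.87% with etoposide, 7.20% with propyl gallate, 4.56% with theophylline and 4.49% with 5-aza-dc, on 3251 to 4422 calls. At chr11:17014001-17015000 they were 0.885%, 0.688%, 0.778%, 0.763% and 0.921%, on 4255 to 5875 calls. These were also the 2 windows with the most calls of the 220. The deposited annotation starts OR7E14P at 17013998, inside the island, but RefSeq starts it at 17051886. PLEKHA7 has the RefSeq span 16777297 to 17014414, given here by coordinate and not by strand. Both windows overlap that span near its high-coordinate end, which may be either end of the gene, and PLEKHA7 is the only RefSeq gene there. Without them the mean of the remaining 218 windows was 89.3% in the vehicle control. The window over the RefSeq span of OR7E14P, which starts at 17051001, read 92.9%, 90.4%, 96.3%, 97.1% and 93.6%.

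The window at chr11:4393001-4394000 carried the label OR52K3P in the same way. The deposited span of OR52K3P runs from 4393775 to 4520905, while RefSeq gives it 947 bases from 4474810. The 5′ end of TRIM21, an antibody receptor and ubiquitin ligase, lies in the window, and its promoter is the last sequence printed above. The levels were 47.8% in the vehicle control (22 of 46 calls), 21.2% with etoposide (18 of 84), 31.4% with propyl gallate (10 of 32), 54.1% with theophylline (29 of 53) and 10.3% with 5-aza-dc (6 of 56). It had the widest spread of all 220 windows, 43.8 points, on few calls.

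The low windows of OR51R1P and OR5AN2P stood near 50% in all 5 libraries. OR51R1P, a class I pseudogene whose window at chr11:4418001-4419000 covers its start, read 46.2%, 48.1%, 45.8%, 46.7% and 48.9%, on 196 to 263 calls. OR5AN2P, at chr11:59321001-59322000 and intergenic, read 49.5%, 45.1%, 51.4%, 49.7% and 49.4%, on 129 to 204 calls. Each library's value lay inside the counting interval of the other four. The remaining 3 low windows varied by 12.2 to 14.9 points. OR8B9P, at chr11:124481001-124482000 and in the pseudogene itself, read 31.1%, 22.2%, 37.0%, 28.0% and 31.0%. The island window of OR4D7P at chr11:59537001-59538000 read 35.3%, 29.4%, 39.5%, 41.6% and 31.3%. It lies in RefSeq's LOC102723575, not in the pseudogene, and overlaps a promoter of that locus. OR10D5P at chr11:124069001-124070000, which lies 14208 bases from the assigned start, read 29.6%, 35.0%, 22.4%, 32.2% and 24.0%, on 698 to 1015 calls, and with propyl gallate it was lower than the control (adjusted p 0.00342, Fisher's exact test).

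In all, 14 windows stayed between 20% and 80% in every library, or 6.36% of the 220, against 5.60% of all windows. These limits were chosen after the values were seen. All 14 had at least 100 calls in every library, and at that depth they were 8.09% of the olfactory receptor windows, against 5.96% of all windows. In 11 of the 14 (78.6%) the 5 libraries lay within 10 points of each other, against 59.6% of all such windows. They included windows of 3 genes. The OR52N4 window, in the promoter section of the deposited annotation but inside RefSeq's longer span of the gene, read 56.5%, 61.9%, 64.1%, 61.1% and 60.4%. The OR2AG2 window upstream of the gene read 64.6%, 65.3%, 65.9%, 66.5% and 68.0%, and that near OR5W2 read 66.5%, 69.8%, 65.9%, 64.1% and 69.2%. The deepest was OR7E1P at chr11:67978001-67979000, which read 60.0%, 58.9%, 60.8%, 60.6% and 56.5% on 1808 calls or more.

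**Figure D2:**
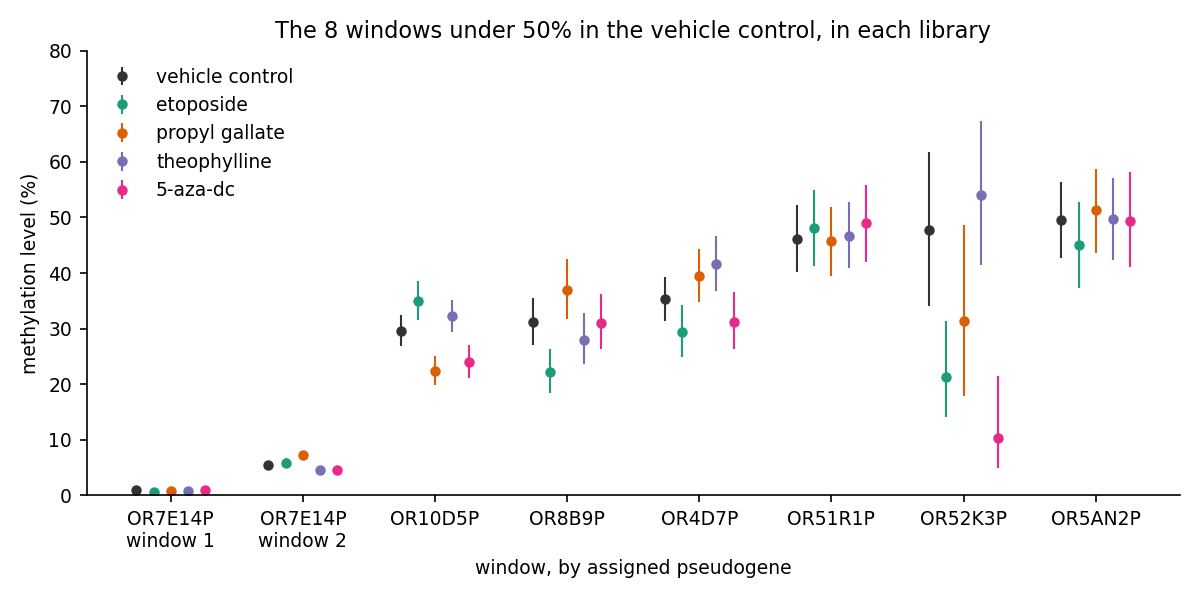
Methylation level in percent (y axis) of the 8 windows below 50% in the vehicle control (x axis, by assigned pseudogene), in each of the 5 libraries (colours), with bars for the 95% Wilson interval of the calls. OR51R1P and OR5AN2P stand near 50% in all 5 libraries, the 2 windows of OR7E14P stand below 8%, and OR52K3P runs from 10.3% to 54.1% with wide bars.

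Windows that hold an annotated start were otherwise high. Of the 14, the deepest were those of OR7E14P, described above, OR5M6P and OR7E11P. OR5M6P, a class II pseudogene at chr11:56513001-56514000, read 98.1%, 94.7%, 94.3%, 96.3% and 96.3%. OR7E11P at chr11:67736001-67737000 read 84.3%, 85.7%, 91.0%, 83.5% and 86.5%. The median of the 14 was 92.8% in the vehicle control, and the mean of 79.6% carried the low windows of OR7E14P, OR52K3P and OR51R1P.

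Among the other windows with the most calls, OR7E4P at chr11:71615001-71616000 read 87.2%, 87.4%, 86.2%, 86.6% and 84.3%, and OR7E126P at chr11:71910001-71911000 read 84.5%, 87.9%, 86.5%, 85.2% and 84.4%. The island window near OR52A1 at chr11:5144001-5145000 read 97.5%, 97.3%, 96.7%, 96.7% and 95%. The symbols with the most windows were OR7E14P with 14, OR2BH1P with 8, and OR10D5P, OR4C10P and OR4C49P with 4 each. All 8 windows of OR2BH1P, which stands apart from the clusters near 28.9 Mb, read above 90% in every library. OR51E2, a class I receptor known for its expression in prostate, had 2 intergenic windows. The one with more calls read 93.6%, 92.9%, 93.7%, 96.3% and 86.3%, and the other 98.9%, 98.3%, 97.0%, 96.8% and 92.4%, so the 5-aza-dc library was lowest in both.

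The question put to the chemicals was whether they raise or lower methylation. Over the 220 windows the mean difference from the vehicle control was −0.0544 points for etoposide (95% counting interval −0.472 to 0.364), 0.259 for propyl gallate (−0.143 to 0.661), 0.958 for theophylline (0.560 to 1.36) and −1.54 for 5-aza-dc (−1.98 to −1.09). Over all windows the same differences were 0.513, 0.566, 0.975 and −1.03. On the log2 scale of β-value ratios the means of the 220 windows were −0.0076, 0.0038, 0.014 and −0.035. With etoposide 119 windows stood above the control and 100 below, with propyl gallate 120 and 98, with theophylline 128 and 89, and with 5-aza-dc 94 and 126. The differences of single windows had an SD of 4.93 to 6.56 points, several times the mean. The median difference with 5-aza-dc was −0.466, against −0.637 over all windows, so by the median the 220 windows were nearer to the control and by the mean farther from it. In the 5-aza-dc library 78 windows (35.5%) had their lowest value, against 35.1% of all windows.

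Few windows passed Fisher's exact test, 2-sided and adjusted over all 288391 windows by the Benjamini-Hochberg method, at an adjusted p under 0.01 with a difference of at least 25 points. With etoposide 1 of 220 windows did (0.455%), where 0.193% of all windows did. With propyl gallate none did, where 0.176% of all windows did, and 7 passed at 10 points. With theophylline 1 did, where 0.175% of all windows did, and with 5-aza-dc 3 did (1.36%), where 0.31% did. At 10 points, 2 windows were called higher and 4 lower with etoposide, where 1.36% and 0.957% of all windows were. For propyl gallate the counts were 2 and 5, where the shares of all windows were 1.34% and 0.879%. For theophylline they were 2 and 1, where the shares were 1.59% and 0.678%. For 5-aza-dc they were 3 and 13, or 1.36% and 5.91% of the 220, where the shares were 0.877% and 2.76%.

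The calls at 25 points fell in 3 windows, all lower than the control and all with few calls. The window upstream of OR4X2, a class II receptor, at chr11:48243001-48244000 was called in 3 libraries. It was fully methylated in the vehicle control (52 of 52 calls) and with propyl gallate (62 of 62), and read 66.7% with etoposide (12 of 18), 71.0% with theophylline (19 of 27) and 65.4% with 5-aza-dc (28 of 43). The 3 comparisons share the control library. Their adjusted p-values by Fisher's exact test were 0.00223, 0.00141 and 3.69e-05. The neighbouring OR4X2 windows, at 48240001 and 48241001, read 94.5% and 94.9% in the control and 87.2% and 85.8% with 5-aza-dc. The OR52K3P window over the TRIM21 promoter was called with 5-aza-dc (adjusted p 0.000593, Fisher's exact test). So was the window of the class II pseudogene OR4C1P at chr11:55503001-55504000, which read 100%, 96.5%, 94.3%, 100% and 67.9% on 45, 48, 49, 36 and 23 calls (adjusted p 0.0026, Fisher's exact test).

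Windows called at 10 points included deeper ones. With 5-aza-dc the pseudogene OR7E128P, at chr11:71889001-71890000 in XNDC1N, read 69.1% against 88.2% in the control, on 812 control calls, and 83.9% to 87.2% in the others. OR5A2, a class II receptor with a promoter-section window at chr11:59427001-59428000, read 73.9% with 5-aza-dc and 82.5% with propyl gallate, against 93.7% in the control, 90.0% with etoposide and 91.5% with theophylline. OR52R1, a class I receptor, read 85.2% with 5-aza-dc at chr11:4801001-4802000 and 92.8% to 97.0% in the others. The OR51A2 window at chr11:4958001-4959000 read 85.7% with 5-aza-dc and 94.6% to 97.7% in the others. These 4 windows were named for their fall with 5-aza-dc, so that its library was the lowest in each follows from the choice.

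Some windows stood higher than the control in several libraries at once. OR7E4P, at chr11:71614001-71615000, read 68.0% in the control, 84.7% with etoposide, 79.4% with propyl gallate, 84.9% with theophylline and 86.8% with 5-aza-dc. OR5P2, a class II receptor, at chr11:7799001-7800000 read 84.5%, 95%, 92.7%, 91.0% and 96.7%. OR10G7, at chr11:124042001-124043000, read 85.3%, 91.3%, 94.2%, 90.5% and 96.2%. In all 3 the control library was the lowest of the 5, so the rises share that value, and the 4 comparisons are not independent.

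With etoposide the largest fall past the test among windows with at least 30 calls was at OR5BC1P, at chr11:58308001-58309000, which read 82.8% against 100% in the control, and 97.8%, 98.2% and 86.0% with propyl gallate, theophylline and 5-aza-dc. OR4A10P at chr11:55436001-55437000 read 78.9% with etoposide and 92.3%, 95.4%, 95.3% and 86.6% in the others. Neighbouring windows of OR52P1 differed in their values. At chr11:5729001-5730000, called lower with etoposide and 5-aza-dc, it read 87.8%, 76.9%, 82.6%, 87.4% and 77.6%, and at chr11:5730001-5731000, called only with theophylline, it read 86.6%, 91.0%, 89.1%, 99.3% and 92.2%. The OR4C10P window at chr11:48429001-48430000, called higher with etoposide, read 84.4%, 95.3%, 88.2%, 80.5% and 86.3%, and that at chr11:48432001-48433000, in the pseudogene and called lower with 5-aza-dc, read 95.1%, 90.0%, 88.0%, 93.7% and 85.0%. OR2BH1P at chr11:28876001-28877000 rose from 90.9% to 100% with etoposide.

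With propyl gallate the largest fall past the test was in a window assigned to the class I receptor OR56B4, at chr11:6105001-6106000. Among windows with at least 30 calls in both libraries it fell most, from 97.9% on 96 calls to 75% on 55. Theophylline read 83.0%, etoposide 100% and 5-aza-dc 97.3%. The window does not overlap OR56B4 and lies in RefSeq's LOC124902622. OR7E12P at chr11:3397001-3398000 read 94.8%, 90.9%, 78.8%, 100% and 99.3%. The shore window of OR7E14P at chr11:17012001-17013000 read 83.5%, 74.3%, 67.4%, 77.6% and 69.7%. OR7E87P at chr11:71598001-71599000 read 71.2%, 78.8%, 89.9%, 83.8% and 68.2%, and OR10D5P at chr11:124057001-124058000 read 87.3%, 87.1%, 100%, 93.4% and 95.8%. OR10D4P at chr11:124076001-124077000 rose by less, from 84.7% to 91.6%. Rises and falls were both picked by rule here, so these windows do not show which direction prevailed with propyl gallate.

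With theophylline the falls past the test among windows with at least 30 calls were under 10 points. They were at OR5BA1P, which read 84.5% against 93.0% at chr11:57858001-57859000, at OR10D5P, 91.2% against 97.8% at chr11:124049001-124050000, and at OR4C49P, 91.7% against 95.6% at chr11:50063001-50064000. With 5-aza-dc the OR10D5P and OR4C49P windows read 90.6% and 88.2%. OR2BH1P at chr11:28875001-28876000 rose from 90.4% to 100%.

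By group of neighbours, the 5-aza-dc difference ran from −6.46 points to 2.53. The lowest was that of 13 windows of 8 class II symbols between 48215001 and 48735000 (counting interval −8.60 to −4.32), in which 11 of 13 windows stood below the control. The OR4X2 window is one of them, and the others of this group included OR4A45P at 80.8% against 89.5% and OR4A44P at 63.5% against 75%. The neighbouring 6 windows of OR4C12, OR4C45 and OR4C49P had a difference of −5.02 (−7.97 to −2.06). At the other end of the chromosome, 27 windows between 123820001 and 124559000 had one of 0.305 (−1.07 to 1.67). The class I windows differed by −2.42 (−3.39 to −1.45) with 5-aza-dc and by −1.09 with propyl gallate, and the class II windows by −1.29 and 0.635. Class I includes the OR52K3P window over the TRIM21 promoter, at −37.5 points with 5-aza-dc and −16.4 with propyl gallate. It also includes OR56B4 at −22.9 with propyl gallate, and class II includes OR4X2 at −34.6 with 5-aza-dc. These windows have few calls and lower the class means, which were not recomputed without them. Groups this small were not tested against each other.

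The spread over the 5 libraries went with depth. The median range of a window, highest minus lowest, was 6.58 points, against 6.32 over all windows. It was 14.7 points in the 10 windows whose fewest calls were under 30 and 4.99 in the 108 with at least 300, against 14.6 and 4.77 over all windows of those depths. Across the 220 windows, β-values in the control and in each chemical's library correlated at 0.896 to 0.935 (Pearson's r). Without the 2 windows whose mean over the 5 libraries was below 20%, r was 0.848 to 0.898, and over all windows 0.979 to 0.984. This r is a description over windows of 1 cell line, which share base composition and sites. It also depends on the range of levels. Only 0.909% of the olfactory receptor windows stood below 20% in all 5 libraries at once, against 10.3% of all windows. A lower r therefore does not show less likeness.

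**Figure D3:**
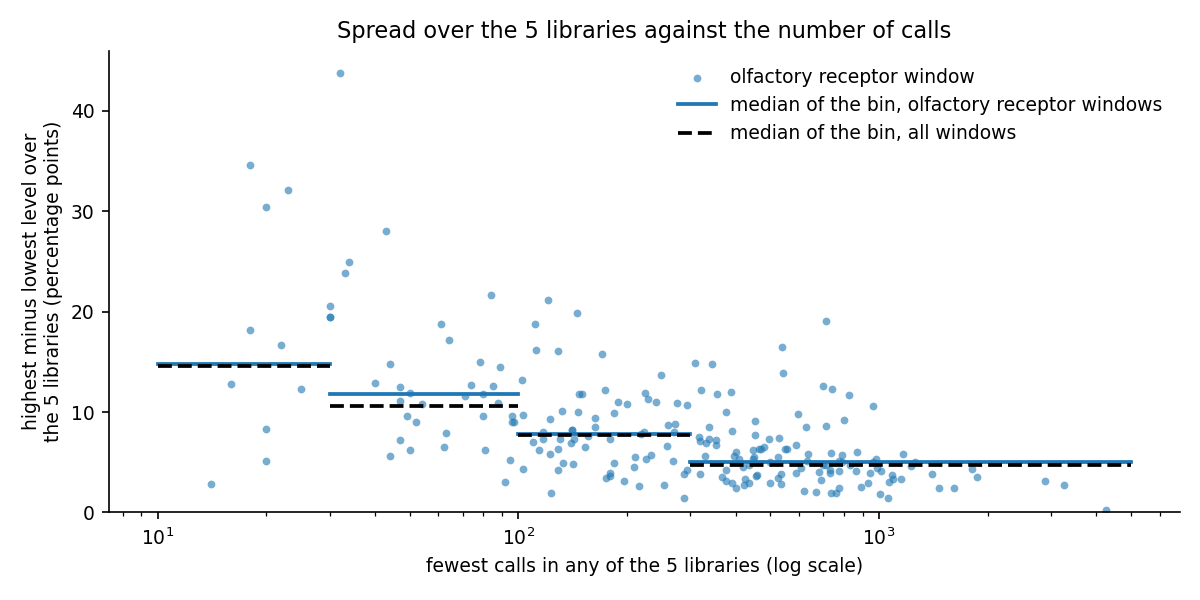
Highest minus lowest level over the 5 libraries, in percentage points (y axis), against the fewest calls in any library (x axis, log scale), for each olfactory receptor window, with the median of each range of calls for these windows (blue) and for all windows (dashed black). The spread narrows from a median of 14.7 points under 30 calls to 4.99 at 300 or more, and the blue and black lines lie close together.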

How the data were processed

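Genomic DNA of 5 iPSC cultures was measured by RRBS, 1 library per condition. Per the labels and methods, the authors trimmed reads with Trim Galore 0.5.0, aligned them to hg38 with Bismark 0.20.0, converted files with SAMtools 1.9 and counted calls with methylKit 1.10.0 in windows of 1000 bases, leaving out those with coverage below 10 and the deepest. The deposited tables give coverage and counts of methylated calls, the deposited β-value as a fraction, and a deposited distance to the gene start as a score in bases. Gene, section and CpG context are the authors' annotation.

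The deposited counts of the 4 chemical libraries were found scaled by 1.18, 1.09, 1.15 and 1.21 (etoposide, propyl gallate, theophylline, 5-aza-dc). Division returned the deposited coverage in 100% of windows, and these calls entered all tests and intervals, while levels are as deposited. Rounding of the scaled counts can move a level by up to 3.79 points in windows with few calls. Each chemical's library was compared with the vehicle control by Fisher's exact test per window (2-sided, Benjamini-Hochberg over 288391 windows, adjusted p under 0.01, at least 25 points, or 10 as an alternative). Tested on simulated data for 5-aza-dc, 196 of 200 changed windows and 0 unchanged ones were called. The simulation drew independent calls and lowered only windows with at least 30 calls, by more than 25 points. Smaller changes, changes in shallower windows and dependence between calls were not simulated, so it gives no error rate for these. Means weight windows equally; log2 ratios leave out windows at 0. RefSeq (GRCh38.p14) gave spans and promoters. No genome of the files' build was used. Python 3.11.15, numpy 2.4.6, pandas 2.3.3, scipy 1.17.1 and numba 0.67.0 were used.

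Named windows were the 6 with most calls, the 6 lowest with at least 30 calls in every library, for each chemical up to 3 rises and 3 falls past the test with at least 30 calls in both libraries, the 5 symbols with most windows, and the 3 deepest windows holding a start. Others were named after their values were seen. Lists were genes of olfactory signalling and receptor choice, other chemosensory receptors, TRIM genes of chromosome 11, and markers of pluripotent cells, differentiated cells and olfactory neurons. The members, rule and lists were chosen with earlier results of these data known.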

Additional observations from a re-analysis of the deposited data

How the results depend on the processing

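The mean level depended on which windows were counted. In the order vehicle control, etoposide, propyl gallate, theophylline and 5-aza-dc, it was 91.1%, 91.1%, 91.0%, 91.8% and 89.4% without pseudogenes, and 85.4%, 84.1%, 84.7%, 85.9% and 83.3% in windows overlapping the gene body. It was 89.6%, 89.4%, 89.8%, 90.4% and 87.9% without the OR7E family (an alternative added after seeing the data), and 89.3%, 89.4%, 89.9%, 90.4% and 88.3% with each symbol counted once. With all calls pooled it was 82.4%, 83.3%, 84.1%, 84.1% and 81.5%. Restricted to windows with 100 or more calls everywhere it was 88.0%, 88.1%, 88.4% and 88.7% in the first 4, in that order. The difference with 5-aza-dc stayed below 0 under all 9 alternatives, at −1.08 with at least 100 calls, −2.11 over gene bodies, −1.02 with each symbol once and −0.963 pooled. That with theophylline stayed above 0, at 0.519 over gene bodies and 1.61 pooled. For etoposide it was −1.31 over gene bodies and 0.828 pooled, and for propyl gallate −0.636 and 1.68, so the sign depended on the choice. On the log2 scale, gene bodies gave −0.0499 for etoposide, −0.0102 for propyl gallate, −0.0021 for theophylline, which reversed its sign, and −0.073 for 5-aza-dc. The log2 value of 5-aza-dc was −0.020 with at least 100 calls and −0.022 with each symbol once, and the median was −0.0072, with 0.0069 for etoposide. The cause of these shifts was not tested. Counts of called windows for etoposide, propyl gallate, theophylline and 5-aza-dc were 6, 7, 3 and 16 at 10 points and 24, 21, 19 and 35 with no minimum difference. With at least 30 calls in both libraries the counts for etoposide and theophylline were 0, since the OR4X2 window had fewer, and without pseudogenes that for 5-aza-dc was 1.

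The other alternatives moved no mean beyond its counting interval and no count by over 1.5 times. No paired analysis was possible because each condition had 1 library. With 1 library per condition, a difference between libraries and one between conditions cannot be told apart. Windows with fewer than 100 calls gave wide spreads, and the rounding of scaled calls adds to them. Read assignment among near-identical copies, OR7E above all, is uncertain. Gene labels follow the deposited annotation, whose spans depart from RefSeq for several symbols. Besides OR7E14P and OR52K3P these include OR52B5P, OR56A3, OR5BA1P, OR8B9P, OR8A1 and OR52N4. For OR52N4 the deposited span is 1716 bases and that of RefSeq 29487.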

Other observations

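Olfactory receptor windows of other chromosomes, 703 in number, had a mean β-value of 85.6% in the vehicle control, 86.1% with etoposide, 86.0% with propyl gallate, 86.6% with theophylline and 84.3% with 5-aza-dc. Their differences from the control were 0.544, 0.435, 1.01 and −1.25 points. The 168 windows of 62 taste, vomeronasal and trace amine receptor symbols had a mean of 85.6% in the control, and their differences were 1.26, 1.30, 1.00 and −0.941 points. The 78 windows of 20 TRIM genes of chromosome 11 had a mean of 81.5% in the control. TRIM29 alone gave 25 of these windows. The list was taken by chromosome and not by nearness to the receptors.

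One list joined genes of olfactory signalling, which carries the odorant signal downstream of the receptors, with genes of receptor choice. Of its 19 genes, 18 had windows, 196 in all, with a mean of 71.4% in the control. Their 13 promoter-section windows, in 10 genes, had a median of 1.15% and a mean of 35.7%. Low ones included those of the transcriptional regulators EBF1, EMX2, LDB1 and LHX2, with means of 0.717%, 1.12%, 0.436% and 1.43%. The median is therefore not one of signalling genes alone. Windows of ADCY3, the adenylyl cyclase of the cilia, and CNGA4, a channel subunit, read 0.114% and 1.05%, while those of OMP, the marker protein of mature olfactory neurons, had a mean of 93.5%. The GNAL promoter-section window, for the olfactory G protein, read 100% on only 26 calls. The 42 windows of the 4 olfactory neuron markers had a mean of 84.5%. The 76 windows of 9 pluripotent markers had a mean of 68.9% and the 43 windows of 8 differentiated cell markers one of 42.4%. Methylation does not measure expression, which was not analysed here.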
